A study of Mus musculus with 2 samples.

Results

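Mir22 is the mouse gene of the microRNA miR-22, and it was 1 of 2202 microRNA genes counted in heart tissue. It was chosen by its measured level and by the size of its difference between the 2 libraries, so both are given here as a description and without a test. The row was found by its GENCODE M21 symbol, which 1 gene identifier carried (ENSMUSG00000065529.1). The tissue came from female mice of the hybrid B6CASTF1/J, bred by crossing C57BL/6J with CAST/EiJ, at an age of 18 to 20 months, with no treatment or engineered allele named. There was 1 group of 2 libraries, numbered as biological replicates 1 and 2. Each has a tissue record of its own, but both point to the same donor record, so the spread between them may be partly technical. With 1 age and 1 group, the level of Mir22 could not be set against young or diseased hearts.

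MicroRNAs are short RNAs cut from hairpin precursors by Drosha and Dicer and loaded into Argonaute proteins, which they guide to messenger RNAs that match their seed, the bases near the 5′ end. miR-22 is conserved among vertebrates and abundant in heart and skeletal muscle. It is known for promoting hypertrophic growth of cardiomyocytes, with Sirt1 and Hdac4 among its described targets, and for promoting senescence of several cell types, cardiac fibroblasts of ageing hearts among them.

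The sequences behind the counts are those of the hairpin and of the mature RNA from each of its sides, called the 5p and 3p arms. They are given from RefSeq on build GRCm38.p6, the assembly that mm10 names, because a count per gene does not separate the arms and the arms differ in their seed. Capitals mark the arms in the hairpin and the seed (bases 2 to 8) in each arm. The hairpin lies at chr11:75463716-75463810 on the plus strand, the 5p arm at chr11:75463734-75463755 and the 3p arm at chr11:75463772-75463793.
Mir22 hairpin: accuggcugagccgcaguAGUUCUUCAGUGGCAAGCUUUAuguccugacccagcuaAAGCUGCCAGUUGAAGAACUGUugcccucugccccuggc
mmu-miR-22-5p: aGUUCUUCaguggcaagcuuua
mmu-miR-22-3p: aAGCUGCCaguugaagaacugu

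The seed of neither arm recurred among the 1738 mature mouse sequences of the same table. A target site for the 3p arm would read GGCAGCU, the reverse complement of its seed. Only the 5p arm had partial relatives, mmu-miR-6935-3p and mmu-miR-7092-3p, which share its bases 2 to 7. Their genes, Mir6935 and Mir7092, each had 0 sense counts in both libraries. In the fold predicted for the hairpin of 95 bases (minimum free energy -41.9 kcal/mol), 19 base pairs joined the arms, 18 of them Watson-Crick pairs and 1 a G-U pair, and all 7 seed bases of each arm were paired.

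The hairpin lies within exon 2 of Mir22hg, a long non-coding host gene (chromosome 11, 75461539 to 75466676). That exon begins 23 bases before the hairpin in both annotated Mir22hg transcripts, and it is also exon 2 of Tlcd2-203, a non-coding transcript of the protein-coding gene Tlcd2. No annotated gene overlaps the hairpin on the other strand, and Mir22 had 0 antisense counts in both libraries. The nearest other protein-coding genes are Wdr81, 8999 bp before it, and Prpf8, 23006 bp after it.

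Mir22 is a gene of 1 locus, which bears on how far its count can be trusted. Exact matches to its arms were found in 4 of 141767 annotated transcripts, from 3 genes (Mir22, Mir22hg and Tlcd2), all at this locus. No stretch of 20 nt of its hairpin recurred in another microRNA hairpin. Reads that map to more than 1 place entered no gene count, and they took 43.9% and 43.2% of all reads in replicates 1 and 2. Copies outside annotated transcripts were not looked for. Among the 243 detected genes that share no such stretch, Mir22 ranked 7th by mean level, against 10th among all genes. Both ranks, and the shares of gene counts below, leave multimapping reads out. Genes of several loci could stand higher with those reads, which was not tested. A gene was counted as detected with at least 10 sense counts in each library, which 316 genes reached.

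Mir22 had 173867 sense counts in replicate 1 and 53403 in replicate 2. The libraries held 3383676 and 3676084 sense counts over all microRNA genes, so the library with fewer Mir22 counts was the deeper one. Scaled to 1000000 such counts (CPM), Mir22 stood at 51384 CPM in replicate 1 (Wilson 95% interval 51149 to 51619.8) and at 14527 CPM in replicate 2 (14405 to 14650). The intervals lie far apart, but each comes from 1 library and covers counting error only, not variation between tissue samples or library preparations. Copies made by PCR were not told from separate molecules, so the intervals may be too narrow even for counting error. Mir22 took 5.14% of the gene counts of replicate 1 and 1.45% of those of replicate 2, or 1.86% and 0.506% of all reads. The mean was 32956 ± 26062 CPM (SD, n = 2), a coefficient of variation of 79.1%.

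The place of Mir22 in the order of genes depended on the library, as the plot of neighbouring genes shows. It ranked 8th in replicate 1, between Mir23a (53249 CPM) and Mir139 (34684 CPM), and 14th in replicate 2, between Mir29a (19297 CPM) and Mir30d (13999 CPM). By mean level its neighbours above were Mir143 (38667 ± 7181 CPM), known from smooth muscle, and Mir139 (38762 ± 5766 CPM). Below it came Mir26b (28864 ± 3735 CPM) and Mir99a (27063 ± 6291 CPM). The gaps to Mir143 and Mir26b, 5711 and 4092 CPM, are smaller than the SD of Mir22, and 8 other genes have means between its values in the 2 libraries. The rank of 10 is therefore not resolved from those of its neighbours.

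**Figure D1:**
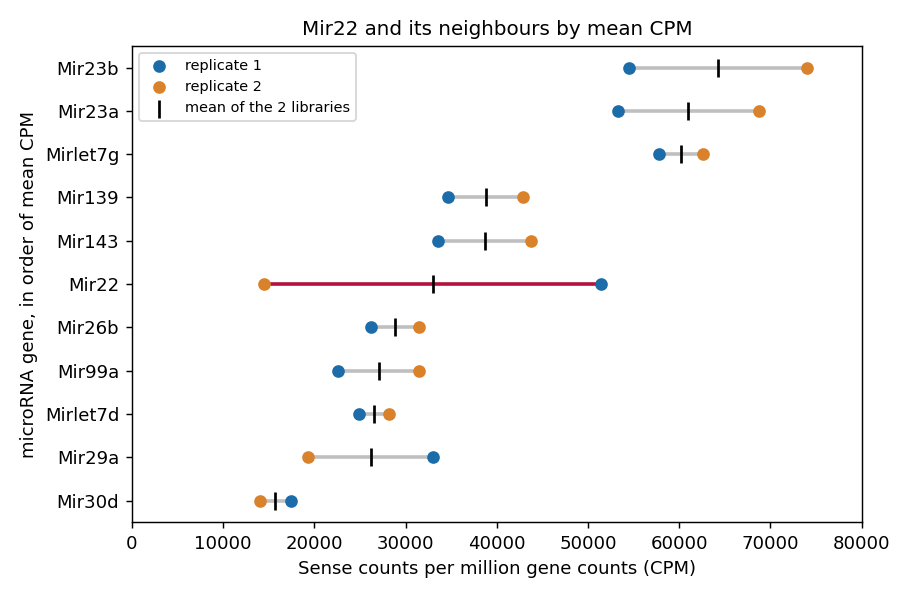
CPM of Mir22 and of the 5 genes next above and next below it by mean CPM: blue points are replicate 1, orange points replicate 2, black ticks the mean, and lines join the libraries. The line of Mir22 runs from 14527 to 51384 CPM and is the longest of the 11.

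The libraries were compared by the log2 ratio of replicate 2 over replicate 1, with library sizes scaled by TMM, a trimmed mean of the log ratios over genes. CPM values carry no such factor, so log2 ratios and the folds taken from them differ somewhat from ratios of CPM. For Mir22 the ratio was -1.95 (exact 95% interval for counting error -1.96 to -1.93), which is a level 3.85 times higher in replicate 1, against 3.54 times in CPM. Of all 316 detected genes, 22.2% lay 2-fold or more apart in either direction, 11.7% lower in replicate 2 and 10.4% higher there. This balance moves with the scaling: 37 genes were 2-fold or more lower and 33 higher with TMM, against 28 and 43 with library totals and 30 and 40 with totals of all reads. The median ratio over all detected genes was 0.05 with TMM and 0.18 with library totals. With either scaling Mir22 lay far from that median, and its difference stayed between 3.54-fold and 4.00-fold under the alternatives tried.

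Genes as abundant as Mir22 mostly lay close together in the 2 libraries. Taking the genes with a mean within 4-fold of that of Mir22 in either direction, there were 20, from Mir30e (8431 CPM) to Mir378a (127632 CPM). Their median absolute log2 ratio was 0.18, and their median coefficient of variation was 14.97%. Of the 20, 16 differed by less than 1.5-fold, and 1 differed by 2-fold or more. That one was Mir126a, a microRNA of endothelial cells, at 129043 CPM in replicate 1 and 57714 in replicate 2 (2.44-fold). The next were Mir29a, known for restraining collagen genes, at 33041 and 19297 CPM (1.87-fold), and Mir125a at 11744 and 6970 CPM (1.84-fold). None of the 20 reached the fold of Mir22. Of the 9 genes within 2-fold of its mean, Mir29a was the farthest apart, and their median absolute log2 ratio was 0.24.

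Larger ratios than that of Mir22 occurred among less abundant genes. Of the detected genes, 20 (6.33%) had a larger absolute log2 ratio, in either direction. The most abundant was Mir195a, of the cell cycle family miR-15/16, at 6824 CPM in replicate 1 and 940 in replicate 2. The mean of Mir22 is 8.49 times its mean of 3882 CPM. Mir214, with 3217 and 695 CPM, was the only other gene above 1000 CPM among them.

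**Figure D2:**
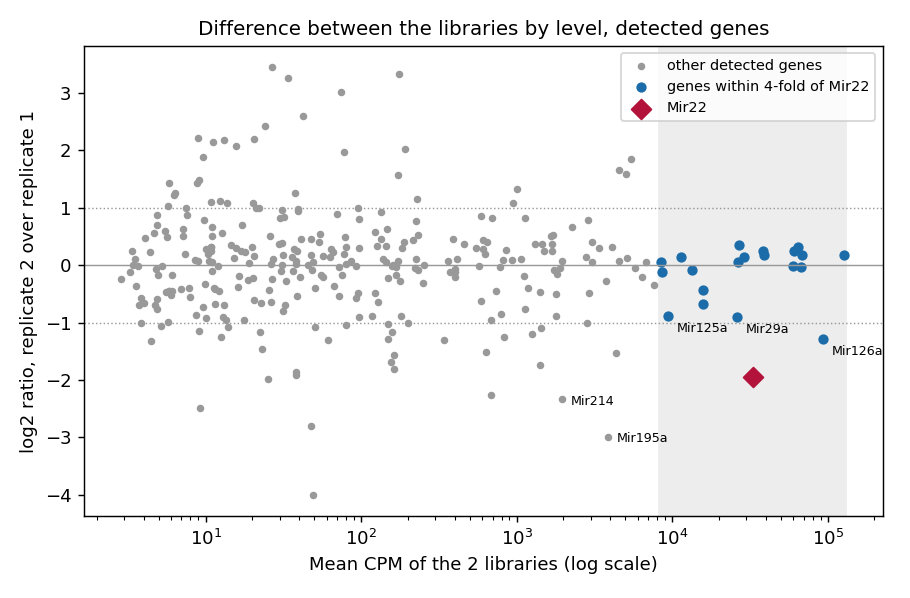
Log2 ratio of replicate 2 over replicate 1 against mean CPM on a log axis for the 316 detected genes; the band spans 4-fold either way of the mean of Mir22, and dotted lines mark 2-fold. Mir22 (red diamond) lies at -1.95, below all 20 genes of the band (blue), of which Mir126a comes nearest at -1.28.

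Because Mir22 is abundant, its difference moved the makeup of the libraries. CPM values that were lower in replicate 2 fell by 164065 CPM in all, or 16.4% of the gene counts. Mir126a made up 43.5% of this sum, Mir22 22.5% and Mir29a 8.38%. In the other direction the largest gains were those of Mir378a (114415 to 140849 CPM), a microRNA in the metabolic gene Ppargc1b, and of Mir23b (54440.5 to 73993 CPM). CPM values share 1 total, so the falls and the gains sum to the same amount. With Mir22 and Mir126a left out of the totals, the log2 ratio of Mir22 was -2.001.

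Besides Mir22, 65 genes had a mean of 1000 CPM or more, and 8 of these were 2-fold or more lower in replicate 2, a share near the 11.7% of all detected genes: Mir126a, Mir15b, Mir195a, Mir92-1, Mir214, Mir29c, Mir15a and Mir451a. They include cell cycle family members (Mir15a, Mir15b and Mir195a), an endothelial gene, Mir214 of the fibroblast list and an erythroid gene (Mir451a). In the same set of 65 genes, 4 were 2-fold or more higher in replicate 2, where 10.4% of all detected genes were.

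The genes with a ratio nearest to that of Mir22 were sought among the 199 others with a mean of 100 counts or more, by the distance between log2 ratios. With 2 libraries this likeness rests on a single ratio per gene. The nearest was Mir208b, whose host Myh7 encodes the myosin of slow muscle and fetal ventricle, with 59.1 CPM in replicate 1 and 17.1 in replicate 2 (log2 ratio -1.91). Mir340 followed with 59.1 and 17.7 CPM (-1.86), then Mir152 with 249 and 77.5 CPM (-1.81). Mir15a had 2145 and 697 CPM (-1.74), Mir210, known to respond to low oxygen, 233 and 78.6 CPM (-1.69), and the erythroid gene Mir144 1119 and 255 CPM (-2.26). Each of these 6 genes is far less abundant than Mir22, and they do not share 1 known cell type. Mir340, Mir152 and Mir144 lie on chromosome 11 as Mir22 does, at distances of 25.4, 21.4 and 2.61 Mb. Of the 199 genes searched, 17 lie on chromosome 11. The 6 were picked by the ratio of Mir22, and a link to the chromosome was not tested.

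Ratios within a library do not depend on the scaling, and Mir22 was set in this way against 12 other genes. It was lower relative to each of them in replicate 2, by factors from 1.58 (Mir126a) to 11.7 (Mir150, a lymphocyte microRNA). This largely restates the ratio of Mir22 itself, since only 7 of the 316 detected genes (2.22%) had a lower log2 ratio. Against Mir499 and Mir208a, which lie in introns of myosin genes of heart muscle, it stood at 12.9 and 32.4 times their counts in replicate 1. In replicate 2 it stood at 4.07 times Mir499 (exact 95% interval 4.00 to 4.15) and 11.6 times Mir208a (11.3 to 12.0). The difference of Mir22 was thus 3.17-fold relative to Mir499 and 2.78-fold relative to Mir208a. Against Mir143 the order turned over, from 1.53 times its counts in replicate 1 to 0.332 times in replicate 2, the only such change among the 12. Outside the 12, the order also turned over against Mir139, Mir26b, Mir99a, Mirlet7d and Mir29a. Against Mir30a, a gene with similar CPM in both libraries (13147 and 13549), it went from 3.91 to 1.07 times.

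**Figure D3:**
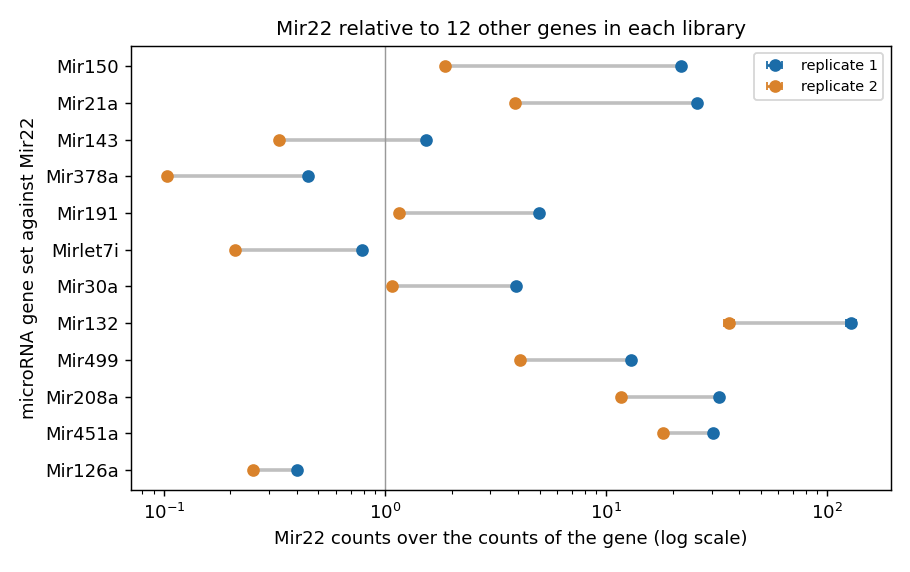
Mir22 counts divided by the counts of each of 12 genes on a log axis, in replicate 1 (blue) and replicate 2 (orange), with exact 95% intervals that mostly hide behind the points; the vertical line marks equal counts. All 12 ratios are lower in replicate 2, and that to Mir143 crosses the line, from 1.53 to 0.332.

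Mir22 was also set beside other microRNAs known from cardiac hypertrophy, a list of 34 genes of which 33 carry a matching symbol and 24 were detected. In the sum of the list, Mir22 took 18.0% in replicate 1 and 5.40% in replicate 2, behind Mir378a and Mir23a in both and behind Mir29a too in replicate 2. Leaving Mir22 out, 4 of the 23 detected members were 2-fold or more lower in replicate 2 and 0 were higher, where 11.7% and 10.4% of all detected genes were. The 4 were Mir195a, Mir214, Mir208b and Mir29c, and the last shares a stretch with another locus. Mir208b and Mir214 are known to rise in stressed hearts, and whether that bears on these libraries was not tested. Mir21a of the same list stood higher in replicate 2 by less than 2-fold, at 2002 and 3756 CPM. Most members lay close together: Mir23a, which promotes hypertrophy, stood at 53249 and 68701 CPM, Mir499 at 3977 and 3567 CPM, and Mir208a at 1588 and 1247 CPM. The median log2 ratio of the other members was -0.18, against 0.05 over all detected genes. Without Mir22 the sum of the list was 234357 CPM in replicate 1 and 254593 in replicate 2. Scaled with TMM, the log2 ratio of these sums was -0.004.

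A list of 31 microRNAs known from senescence and ageing had 27 detected members, and Mir22 was the most abundant of them in replicate 1. It took 44.6% of the sum of this list in replicate 1 and 25.5% in replicate 2, where Mir29a (19297 CPM) stood above it. Without Mir22 the list summed to 63736 and 42445 CPM. Leaving Mir22 out, 7 of 26 detected members were 2-fold or more lower in replicate 2 and 6 of 26 higher, where 11.7% and 10.4% of all detected genes were. Of the lower members, Mir29c, Mir24-1, Mir24-2 and Mir181a-2 share a stretch with other loci, and none of the higher members does. With library totals and Mir22 counted, 5 members were lower and 6 higher, against 8 and 6 with TMM. Among the lower were Mir195a, Mir15b (6336 and 2403 CPM) and Mir106b (1135 and 521 CPM). Among the higher were Mir34c, a target of p53, with 29.6 and 323 CPM, and the epithelial genes Mir200c (81.3 and 263 CPM) and Mir141 (4.43 and 22.03 CPM). Mir34a, the member of that family best known from ageing hearts, had 3282 CPM in replicate 1 and 2563 in replicate 2 (log2 ratio -0.48).

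**Figure D4:**
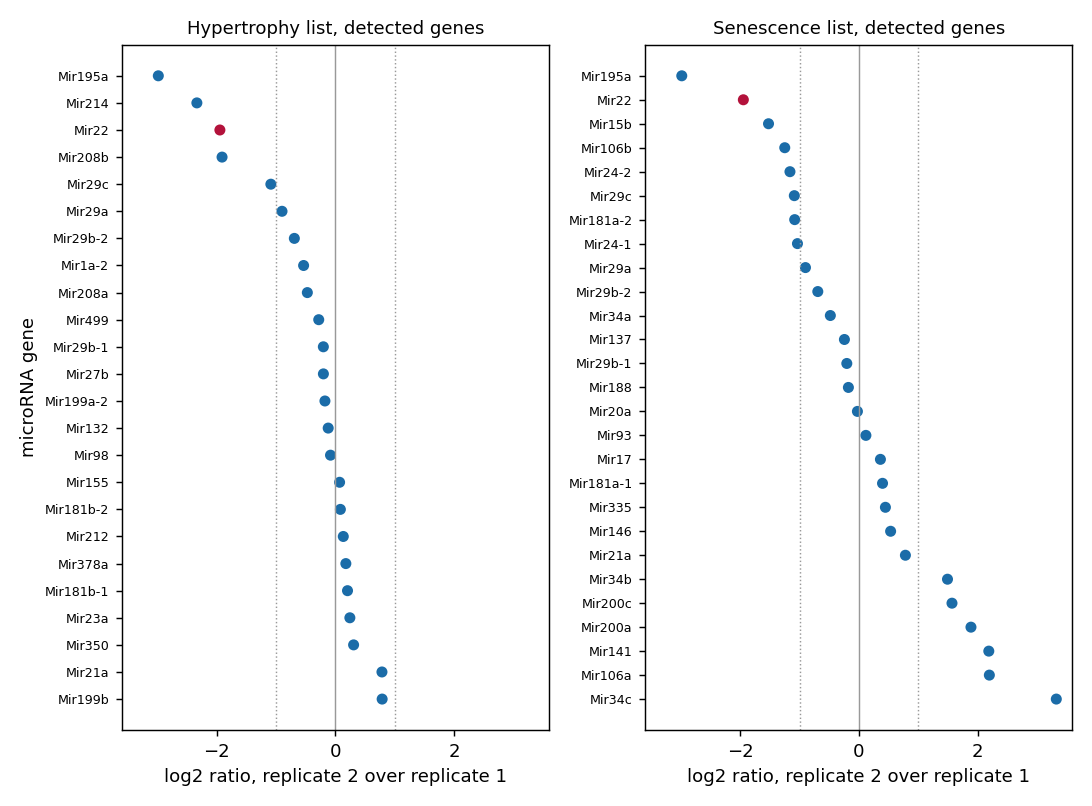
Log2 ratio of replicate 2 over replicate 1 for the detected members of the hypertrophy list (24 genes, left) and the senescence list (27 genes, right), each in order of its ratio, with Mir22 in red and dotted lines at 2-fold. Mir22 lies below all members but Mir195a and Mir214 on the left, and below all but Mir195a on the right.

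Markers of cell types also differed between the libraries, and their part in the difference of Mir22 was not tested. In bulk tissue, fewer cells of a type and less microRNA per cell cannot be told apart. The heart muscle genes Mir499 and Mir208a had at least 4584 counts in each library, which is what the tissue label calls for. The striated muscle list of 8 genes summed to 5725 CPM in replicate 1 and 4909 in replicate 2, with 5 members detected. Of the 5, 1 (Mir208b) was 2-fold or more lower in replicate 2. Mir133b alone stood higher there (3.25 and 6.53 CPM), by less than 2-fold with TMM and past 2-fold with library totals. Mir1a-1, Mir1a-2, Mir133a-1, Mir133a-2 and Mir133b share stretches with other loci, whose multimapping reads entered no count, and had at most 278 counts. The endothelial pair Mir126a and Mir126b summed to 129044 and 57715 CPM, nearly all of it Mir126a. The 3 erythroid genes summed to 4182 and 1938 CPM, 2 of 3 being 2-fold or more lower in replicate 2. Of all detected genes, 11.7% were 2-fold or more lower there. The striated muscle, endothelial and erythroid sums were all lower in replicate 2, as Mir22 was, the first by less than 2-fold. That direction is not particular to these lists. The fibroblast sum, the intestinal and kidney sum and Mir122 of liver, given below, were lower there too. The white blood cell, smooth muscle and epithelial sums were higher. The endothelial list had 1 detected gene.

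Other lists went either way, where 11.7% of all detected genes were 2-fold or more lower in replicate 2 and 10.4% higher. The 4 white blood cell genes summed to 7315 and 14264 CPM, with 3 of 4 being 2-fold or more higher in replicate 2, and the smooth muscle pair to 35639 and 50822 CPM, with Mir145a alone past 2-fold. The 5 fibroblast genes summed to 5231 and 4470 CPM, with 4 detected and Mir199a-1 at 0. Of the 4, Mir214 was 2-fold or more lower in replicate 2. Mir21a (2002 and 3756 CPM) and Mir199b (6.80 and 12.8 CPM) stood higher there by less than 2-fold, and the median log2 ratio was 0.30. Mir199a-1, Mir199a-2 and Mir199b share stretches with other loci, whose multimapping reads entered no count. Epithelial genes, foreign to heart muscle, were low but apart, at 233 and 993 CPM for 10 genes, of which 9 were detected and 8 were 2-fold or more higher in replicate 2. The 4 genes of intestinal and kidney epithelium, in contrast, summed to 172 and 41.9 CPM, each 2-fold or more lower in replicate 2, the direction of Mir22. Mir122 of liver had 23.9 and 17.1 CPM, and of 6 neuronal genes, 5 were at 0 and none was detected. All 6 share stretches with other loci, whose multimapping reads entered no count, so these zeros do not show that neuronal microRNAs were absent.

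The detected microRNA genes nearest to Mir22 on chromosome 11 lay close together in the libraries. Within 1 Mb there are 5, of which Mir212 and Mir132, a pair from 1 host transcript that is itself known for promoting cardiac hypertrophy, lie 290238 and 289969 bp before it. Mir132 had 1360 counts in replicate 1 and 1480 in replicate 2, or 402 and 403 CPM (log2 ratio -0.12). Mir212 had 47 and 61 counts (log2 ratio 0.13). Mir6926 had 1 count in each library, and Mir3971 and Gm47300 had 0 sense counts, which allows up to 0.887 CPM in replicate 1 and 0.816 in replicate 2 at a limit of 3 counts. Mir22 was the most abundant of the 27 detected genes on chromosome 11 by mean level, ahead of Mir195a (3882 ± 4161 CPM) and Mir21a (2879 ± 1241 CPM). The other 26 had a median log2 ratio of -0.13, with 6 of them 2-fold or more lower and 2 higher in replicate 2, beside 11.7% and 10.4% of all detected genes.

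Genes placed like Mir22 had a median ratio near 0. It is 1 of 83 detected genes that overlap an exon of a host gene on the same strand, and it ranked 4th among them by mean level, after Mir126a, Mirlet7b and Mirlet7i. The other 82 had a median log2 ratio of -0.02, with 12 being 2-fold or more lower and 4 higher in replicate 2, beside 11.7% and 10.4% of all detected genes. Mirlet7b, which lies in an exon too, stood at 60724 and 75199 CPM, and Mirlet7i at 65329 and 69311 CPM.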

How the data were processed

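MicroRNA libraries from heart were analysed, 2 samples in 1 group. Raw counts, 1 row a microRNA gene, were deposited by the authors for reads on either strand and on each strand. Per the readme text deposited with them, the build was mm10 and the annotation GENCODE M21. The aligner was not given in the sources used here. The strand columns have no headers, and the stranded column with the larger total was taken as sense. The 4 rows that are no genes (unmapped, multimapping, featureless, ambiguous) were kept out of totals.

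CPM and ranks were computed from sense counts and their totals, and log2 ratios and folds with TMM factors besides (edgeR 4.0.16, over genes with at least 10 counts in each library). DESeq2 1.42.0 gave alternative size factors. RNAfold 2.7.2 folded the hairpin. With 1 library a side no p-value was computed, and a gene counted as apart at 2-fold. The steps were checked on simulated data. Scripts ran in Python 3.11.15 (scipy 1.17.1, pandas 2.3.3, numpy 2.4.6, matplotlib 3.10.9) and R 4.3.3.

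Mir22, the gene lists and the 12 genes of the within-library ratios were chosen with earlier results of these data known. Named genes are the 5 neighbours on each side by mean CPM, any like-abundance gene with a ratio as large, the 6 nearest in ratio, those within 1 Mb, seed relatives and up to 8 detected members a list by level. Mir34c, Mir200c, Mir141, Mir106b, Mir29c, other genes of like abundance and genes named for a count were chosen after their values were seen. Whether the CAST/EiJ allele alters counts on mm10 was not tested.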

Additional observations from a re-analysis of the deposited data

How the results depend on the processing

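The mean level of Mir22, 32956 CPM, became 44821 CPM with reads on either strand and 39177 CPM with totals that leave out Mir22 and Mir126a. Scaled to 1000000 of all reads the mean was 11817, a value on another scale. The SD of 26062 CPM rests on 2 libraries and is too wide to judge whether the mean is stable. By mean level Mir22 ranked 8th with reads on either strand and 10th in the order by all reads. Its rank was 7 without genes that share a stretch, 14 without replicate 1 and 8 without replicate 2. Mir22 had 14527 CPM without replicate 1 and 51384 CPM without replicate 2, and no ratio can be formed from 1 library. Its log2 ratio of -1.95 kept its sign throughout, at -1.82 with library totals, -1.88 with totals of all reads, and -2.001 both with DESeq2 size factors and with totals that leave out Mir22 and Mir126a. Of the detected genes, 70 were 2-fold or more apart. At 4-fold they were 18, at 100 counts in each library 32, and with 10 counts in total and no minimum per library 115. Among the genes of like abundance this count of 1, Mir126a, became 0 at 4-fold, 0 within 2-fold of the mean of Mir22, and 0 with reads on either strand. In the either-strand column Mir378a, Mir191 and Mir30e have 0 counts and Mir126a has 10 in each library, and 925685 and 852067 reads were counted as ambiguous there, against 0 in the sense column. Mir22 has the same counts in both columns. No paired analysis was possible because there is 1 group. Depth limits the genes near 10 counts, such as Mir141 with 15 counts in replicate 1, and not Mir22.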
